A study of Mus musculus with 8 samples.

Results

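Macrophages, monocytes and leukocytes in general are marked by the 36 genes described here, which were taken by symbol from a list of such genes, with no threshold on their measured values. The list was, however, chosen with earlier results of these data known. All 36 were found among the 47643 genes of the count files. RNA came from whole mouse kidneys, 4 from wild-type animals (WT 1 to WT 4) and 4 from conditional knockouts (cKO 1 to cKO 4) of genotype Six2-Cre;Cox10-fl/fl, in which Cre recombinase driven by Six2 acts on a floxed Cox10 gene. Library 2 of each genotype was from an animal of 2.5 months and the others from animals of 3 months. The labels give no sex, do not say whether the wild-type animals carried Cre or a floxed allele, and do not name separate animals, so the p-values measure only the spread between these libraries.

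Nephron progenitors express Six2, and the tubule and glomerular epithelium that they form inherits the deletion. Leukocytes come from blood-forming tissue and do not pass through that lineage. Cox10 makes heme A for cytochrome c oxidase. Kidney macrophages lie between the tubules, depend on signals through the receptor Csf1r, and take up dying cells and antibody-coated particles through Fc receptors, integrins and scavenger receptors. Their genes are largely driven by the transcription factor PU.1, the product of Spi1. In RNA from a whole organ, more cells of a type and more RNA per cell cannot be told apart.

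Of the 36 genes, 34 had enough counts to be tested, and 29 of the 34 were higher in cKO while 0 were lower. Across all 13829 tested genes, 9.57% were called higher and 7.14% lower. Since the list was chosen with earlier results known, this comparison describes the list and is not a test of it. A gene was called where the Benjamini-Hochberg adjusted p of edgeR's quasi-likelihood test, over all tested genes, was under 0.05. The median log2 fold change (cKO over WT) of the 34 was 1.74, against -0.01 over all tested genes, and single values ran from -0.64 for Csf1r to 5.46 for Gpnmb. All 4 cKO libraries lay above all 4 WT libraries for 26 of the 34, against 13.1% of all tested genes. The 5 genes without a call were Ptprc, Lst1, Csf1r, Fcgr2b and Cd86. Levels are given in CPM, counts scaled to library size.

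**Figure D1:**
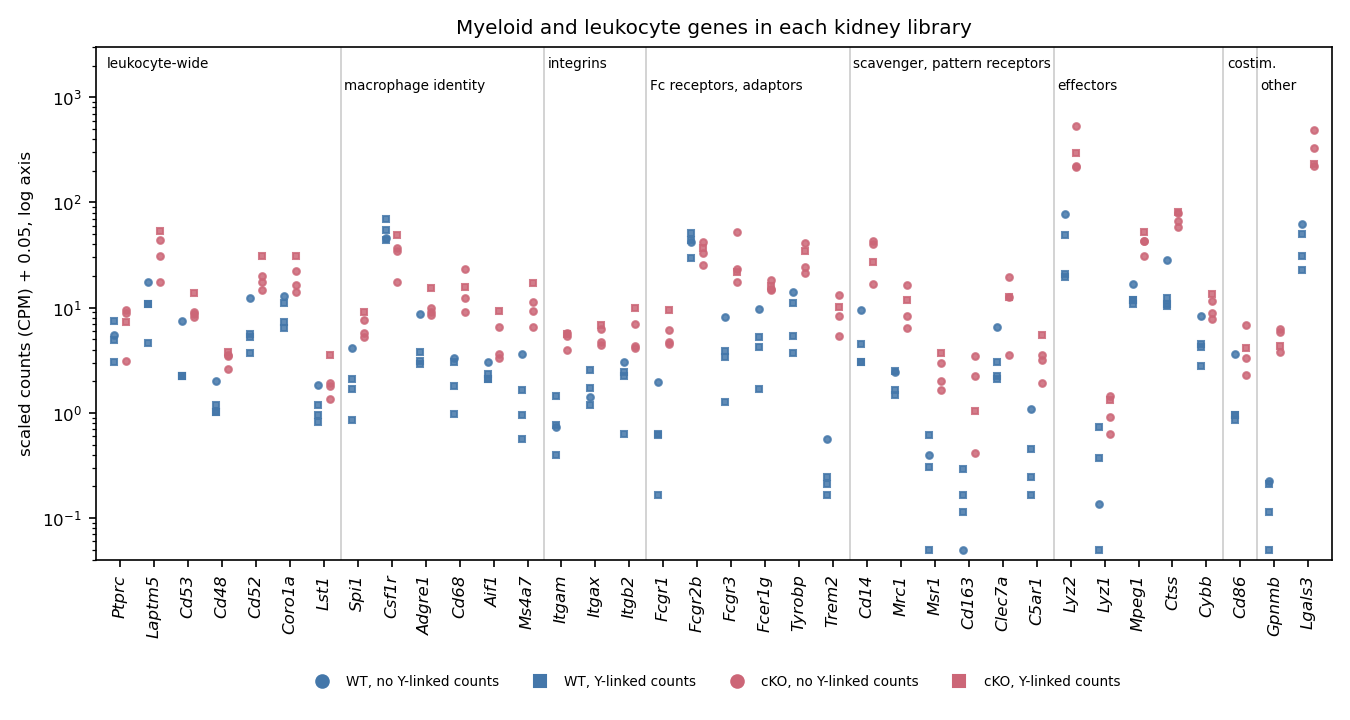
Level of each of the 36 genes in each of the 8 libraries, as CPM plus 0.05 on a log axis, with genes grouped by role. Blue is WT, red is cKO, and squares mark libraries with Y-linked counts; most red points lie above the blue ones, with Ptprc, Csf1r and Fcgr2b as visible exceptions.

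Library totals ran from 9454830 to 15838026 counts, and 16176 to 18316 genes had a count. Y-linked genes, with a minimum of 10 counts, were found in WT 2, WT 3, WT 4 and cKO 3 and not in WT 1, cKO 1, cKO 2 and cKO 4, so sex is unequal between the genotypes. The column headers also carry later sample numbers in WT 4 and cKO 4 than in the other 6 libraries. Cox10 itself stood at 19.2 to 24.6 CPM in WT and 10.9 to 22.3 CPM in cKO (log2 fold change -0.19, adjusted p = 0.619), which does not check the labels, since counts over the whole gene include cells without Cre and exons outside the deleted part. Kidney tubule markers summed to 8780 to 11600 CPM in WT and 3320 to 7160 CPM in cKO, so both groups carry the labelled tissue.

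Promoters of 26 of the 36 genes, 31 promoters in all, were in the RefSeq promoter table (GRCm38.p6), each covering 250 bases before and 50 bases after the start of transcription. They were searched on both strands for 3 patterns of PU.1 binding: GAGGAA, the longer GAGGAAGT that contains it, and GGAANNGAA, a composite with an interferon regulatory factor site that can overlap the others. GAGGAA was found in 16 of 31 (51.6%) against 28.3% of all 32851 promoters, GGAANNGAA in 7 of 31 (22.6%) against 8.24%, and GAGGAAGT in 2 of 31 (6.45%) against 3.2%. These are letter matches, not measured binding. The promoters of Ctss (chr3:95526536-95526835, plus strand), Cd68 (chr11:69666121-69666420, minus strand) and Trem2 (chr17:48346151-48346450, plus strand) are shown as examples from an effector, a macrophage identity gene and a receptor of the list, and they were picked after the matches were seen. Capitals mark every match, and Ctss and Cd68 carry a composite match near the start of transcription, at bases -5 to 4 and 25 to 33 counted from the start as base 1.
Ctss: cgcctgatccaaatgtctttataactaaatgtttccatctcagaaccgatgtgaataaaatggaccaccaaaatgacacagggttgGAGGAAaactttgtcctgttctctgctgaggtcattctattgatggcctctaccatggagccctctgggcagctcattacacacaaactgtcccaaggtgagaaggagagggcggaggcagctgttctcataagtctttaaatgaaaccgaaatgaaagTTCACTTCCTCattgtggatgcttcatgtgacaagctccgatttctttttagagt
Cd68: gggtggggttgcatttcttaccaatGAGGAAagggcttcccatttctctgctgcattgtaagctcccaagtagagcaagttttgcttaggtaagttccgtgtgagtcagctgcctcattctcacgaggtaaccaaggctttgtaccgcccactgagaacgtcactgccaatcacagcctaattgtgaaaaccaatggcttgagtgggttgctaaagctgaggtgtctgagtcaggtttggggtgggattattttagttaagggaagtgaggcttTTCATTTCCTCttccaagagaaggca
Trem2: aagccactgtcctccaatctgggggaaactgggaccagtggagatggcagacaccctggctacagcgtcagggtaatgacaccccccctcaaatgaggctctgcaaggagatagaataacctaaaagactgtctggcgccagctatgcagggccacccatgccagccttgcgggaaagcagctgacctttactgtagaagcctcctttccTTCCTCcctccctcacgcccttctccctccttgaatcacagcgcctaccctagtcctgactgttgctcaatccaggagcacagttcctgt

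Trem2 and Gpnmb showed the largest fold changes among the 34, both from near the detection limit in WT. Trem2 is a receptor for lipids and cell debris on macrophages. It stood at 0.518, 0.115, 0.163 and 0.194 CPM in WT 1 to WT 4 and at 5.31, 13.1, 10.1 and 8.36 CPM in cKO 1 to cKO 4. Every cKO library lay above every WT library, with 12 counts in WT together and 477 in cKO. The log2 fold change was 5.14 ± 0.48 (SE; adjusted p = 8.88e-05). Gpnmb, a glycoprotein of lysosomes in phagocytes that other cell types can also make, stood at 0.173, 0, 0.163 and 0.0647 CPM in WT and 3.72, 5.77, 4.27 and 6.20 CPM in cKO. The groups did not overlap, with 5 counts against 269, and the log2 fold change was 5.46 ± 0.52 (SE; adjusted p = 0.000112). With so few WT counts, both fitted fold changes depend on the prior count. Both genes also needed cKO libraries to pass the count filter, so their calls are not read as support.

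Leukocyte-wide surface and cytoskeletal genes were called higher in 5 of 7 cases (median log2 fold change 1.38). Ptprc, which encodes CD45 on all nucleated blood cells, was not called. It stood at 5.43, 2.98, 7.35 and 4.85 CPM in WT and at 9.40, 8.92, 7.26 and 3.07 CPM in cKO. The groups overlapped, cKO 4 lying near the lowest WT library. On the log2 scale cKO exceeded WT by 0.46 (95% interval -0.36 to 1.29, adjusted p = 0.415). Laptm5, a lysosomal protein of blood cells, rose from 17.3, 4.59, 10.9 and 10.7 CPM to 31.0, 17.4, 53.9 and 44.1 CPM (log2 fold change 1.75 ± 0.41 SE, adjusted p = 0.0145). The lowest cKO value, in cKO 2, was barely above the highest WT value, in WT 1.

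Among the other leukocyte-wide genes, Cd52, a small surface glycoprotein, rose from 12.2, 5.63, 3.67 and 5.24 CPM to 19.8, 17.4, 31.1 and 14.7 CPM (log2 fold change 1.63 ± 0.37 SE, adjusted p = 0.0138). The tetraspanin Cd53, the adhesion protein Cd48 and the actin regulator Coro1a rose by 1.49, 1.38 and 1.17 on the log2 scale, without overlap between the groups. Lst1, at 0.776 to 1.81 CPM in WT and 1.31 to 3.49 CPM in cKO, was not called (log2 fold change 0.88, adjusted p = 0.174). Cd53 reached 7.42 CPM in WT 1 and only 2.18 to 2.20 CPM in the other WT libraries. The Laptm5 call was lost without cKO 4 (adjusted p = 0.0514), the Cd53 call without any of WT 2 to WT 4 or cKO 2 to cKO 4 (0.0592 to 0.0947), the Cd48 call without WT 3, WT 4 or cKO 3 (0.0614 to 0.0760) and the Coro1a call without WT 3, WT 4, cKO 1 or cKO 3 (0.0502 to 0.0758). Cd52 shares 14.5% of its exon bases with a gene on the other strand, and no source used here states whether counting took strand into account.

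The lineage factor and the macrophage identity genes were called higher in 5 of 6 cases (median log2 fold change 1.47), and the growth factor receptor Csf1r was the exception. Of the called genes, Spi1 and Ms4a7 needed cKO libraries to pass the count filter, and their calls are not read as support. Cd68, a glycoprotein of macrophage lysosomes, stood at 3.28, 0.918, 3.02 and 1.75 CPM in WT and at 9.03, 12.3, 15.6 and 23.2 CPM in cKO. It rose by 2.73 ± 0.41 (SE) on the log2 scale without overlap (adjusted p = 0.00155). Ms4a7, a membrane protein of macrophages, stood at 3.54, 1.61, 0.898 and 0.517 CPM and at 9.15, 11.2, 17.1 and 6.46 CPM. It rose by 2.76 ± 0.53 (SE; adjusted p = 0.00579), again without overlap.

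Csf1r, the receptor through which macrophages survive, stood at 45.5, 43.7, 70.3 and 55.2 CPM in WT and at 36.6, 17.3, 49.4 and 34.6 CPM in cKO. The groups overlapped, cKO 3 lying above WT 1 and WT 2. Per kilobase of annotated exon its WT mean was 9.29 CPM, below those of Lyz2, Lgals3, Tyrobp and Ctss and above those of the other members. Its log2 fold change was -0.64 (95% interval -1.28 to 0.01, adjusted p = 0.156), and with age as a term it was called lower (-0.70, adjusted p = 0.0497). Csf1r shares 15.1% of its exon bases with a gene on the other strand.

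Spi1 rose from 4.05, 0.804, 2.04 and 1.62 CPM to 5.74, 5.22, 8.96 and 7.57 CPM (log2 fold change 1.68 ± 0.42 SE, adjusted p = 0.0205). Adgre1, which encodes the mouse macrophage antigen F4/80, stood at 8.63, 2.87, 3.76 and 3.04 CPM in WT and at 9.95, 8.49, 15.4 and 9.14 CPM in cKO. It rose by 1.23 on the log2 scale (adjusted p = 0.0441), although WT 1 lay above cKO 2. Aif1, the calcium-binding protein Iba1, rose by 1.27 (adjusted p = 0.0395). None of these 3 calls held in every fit that left out a library. Spi1 lost its call without WT 3, WT 4, cKO 3 or cKO 4 (adjusted p of 0.0537 to 0.0656), Adgre1 without any library but WT 1 (0.0592 to 0.123) and Aif1 without WT 2, WT 3, WT 4, cKO 1 or cKO 3 (0.0752 to 0.125).

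Leukocyte integrins, which bind complement fragments and vessel walls, were all called higher (3 of 3). The calls of Itgam and Itgb2 are not read as support, since both needed cKO libraries to pass the count filter. Itgam, the alpha chain CD11b, stood at 0.690, 0.344, 1.39 and 0.711 CPM in WT and at 5.31, 5.66, 5.55 and 3.92 CPM in cKO, a rise of 2.66 ± 0.40 (SE) on the log2 scale (adjusted p = 0.00147). The cKO libraries lay close together, and the lowest was above the highest WT library. Itgax, the alpha chain CD11c, rose from 1.38, 1.15, 2.53 and 1.68 CPM to 6.23, 4.35, 6.83 and 4.70 CPM (1.70 ± 0.33 SE, adjusted p = 0.00621). Itgb2, the beta chain shared by both, rose by 1.60 (adjusted p = 0.0331), a call lost without WT 3, WT 4, cKO 1, cKO 3 or cKO 4 (0.0521 to 0.0975). Of the exon bases of Itgam, 68.7% also belong to another gene model on the same strand, so its reads may be split between them; that model held 5 counts over all libraries against 316 for Itgam.

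Fc receptors bind antibodies, and the group also holds Trem2 and the adaptor chains Fcer1g and Tyrobp. Of these 6 genes 5 were called higher, Trem2 included. Fcgr1 and Trem2 needed cKO libraries to pass the count filter, and their calls are not read as support. Fcgr3, a low-affinity activating receptor, stood at 8.11, 3.33, 1.22 and 3.82 CPM in WT and at 17.3, 52.4, 21.8 and 23.4 CPM in cKO. It rose by 2.79 ± 0.51 (SE; adjusted p = 0.00455) without overlap, cKO 2 standing highest. Fcgr2b, the inhibitory receptor of the family, which B cells also express, stood at 41.9, 44.1, 29.6 and 50.9 CPM and at 41.8, 33.3, 36.9 and 25.6 CPM. Its groups overlapped (log2 fold change -0.27, 95% interval -0.77 to 0.22, adjusted p = 0.422). Fcgr2b and Fcgr3 each held fractional expected counts in 7 of 8 libraries, so the split of reads between these similar genes is uncertain.

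The high-affinity receptor Fcgr1 stood at 1.90, 0.115, 0.572 and 0.582 CPM in WT and at 4.46, 6.09, 9.46 and 4.70 CPM in cKO, a rise of 2.92 ± 0.56 (SE; adjusted p = 0.00598). Tyrobp, the adaptor through which Trem2 signals, rose from 13.9, 11.1, 3.67 and 5.37 CPM to 24.1, 40.9, 34.6 and 21.3 CPM (1.83 ± 0.40 SE, adjusted p = 0.0108). Neither gene overlapped between the groups. Fcer1g rose by 1.63 (adjusted p = 0.0206), a call lost without WT 4, cKO 2 or cKO 4 (0.0508 to 0.0597).

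**Figure D2:**
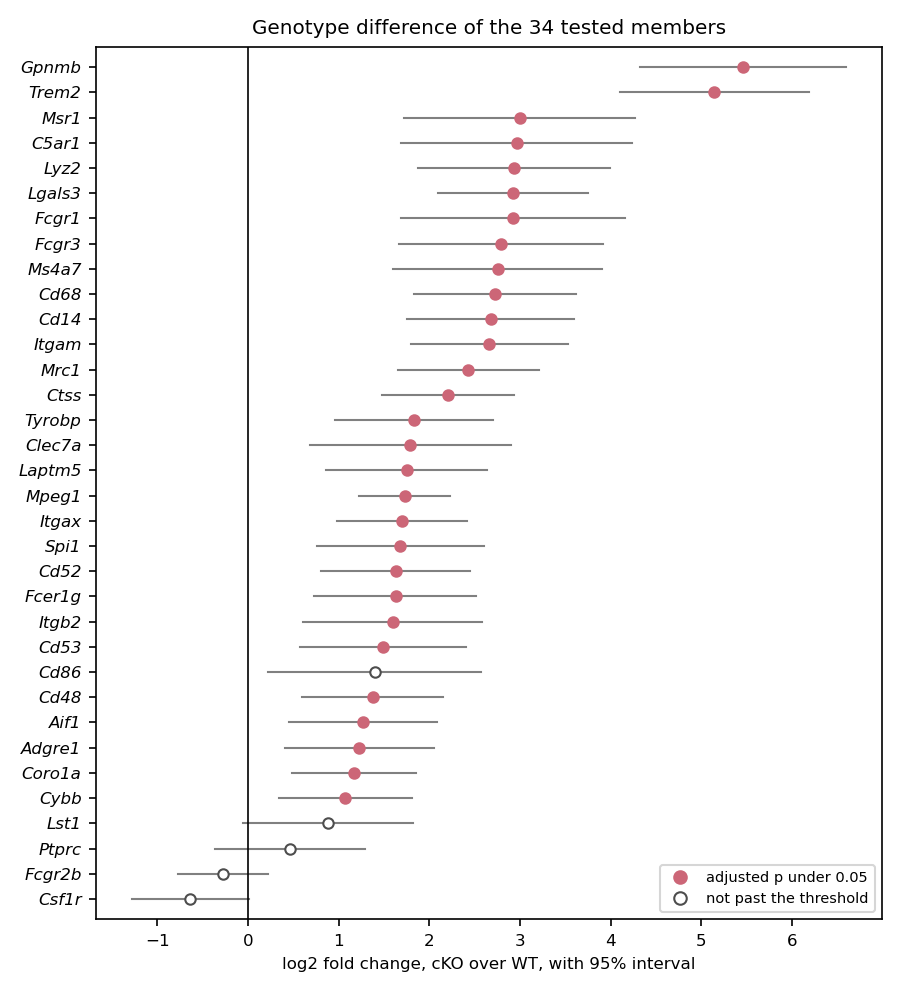
Log2 fold change (cKO over WT) of each of the 34 tested genes with its 95% interval, sorted by size. Filled points passed the adjusted p threshold of 0.05; Gpnmb (5.46) and Trem2 (5.14) stand apart at the top, and Ptprc, Fcgr2b and Csf1r lie at the bottom.

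All 5 tested scavenger, pattern and complement receptors were called higher (median log2 fold change 2.68). Among them Msr1 and C5ar1 needed cKO libraries to pass the count filter, so their calls are not read as support. Cd14, the co-receptor for bacterial lipopolysaccharide, stood at 9.40, 4.48, 3.02 and 2.97 CPM in WT and at 16.8, 40.1, 27.3 and 42.9 CPM in cKO, a rise of 2.68 ± 0.42 (SE; adjusted p = 0.00206). The mannose receptor Mrc1 stood at 2.42, 1.61, 2.45 and 1.42 CPM and at 6.35, 16.5, 11.7 and 8.29 CPM, a rise of 2.43 ± 0.36 (SE; adjusted p = 0.00136). In both genes the lowest cKO library was cKO 1, and it still lay above every WT library. The scavenger receptor Msr1 (15 counts in WT together, 134 in cKO) and the complement receptor C5ar1 (21 against 191) rose by 3.00 and 2.97 (adjusted p = 0.00637 and 0.00663).

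Clec7a, the receptor for fungal glucans also called dectin-1, stood at 6.56, 2.98, 2.20 and 2.07 CPM in WT and at 12.6, 19.4, 12.6 and 3.52 CPM in cKO. It was called (log2 fold change 1.79, adjusted p = 0.0326) although cKO 4 lay below WT 1, and the call was lost without WT 2, WT 3, WT 4, cKO 1, cKO 2 or cKO 3 (0.0555 to 0.0934). Cd163, the receptor for hemoglobin bound to haptoglobin, was too low to test. It had 5 counts in WT together and 92 in cKO, and every cKO library (0.366 to 3.39 CPM) lay above every WT library (0 to 0.245 CPM).

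Effector genes were called higher in all 4 tested cases. Lyz2, the lysozyme of mouse myeloid cells, stood at 77.5, 48.6, 19.4 and 20.8 CPM in WT and at 219, 532, 297 and 224 CPM in cKO. It rose by 2.94 ± 0.48 (SE; adjusted p = 0.00251), and per kilobase of annotated exon it was the most abundant gene of the list in both groups, with mean levels of 31.6 and 242 CPM per kilobase. Ctss, a cysteine protease that trims antigens for presentation, stood at 28.6, 12.3, 10.7 and 10.3 CPM and at 58.9, 79.0, 81.7 and 66.3 CPM, a rise of 2.21 ± 0.33 (SE; adjusted p = 0.00156). Both genes were higher in every cKO library than in any WT library. Lyz1, a close copy of Lyz2, was not tested, with 12 counts in WT together and 58 in cKO, and both genes held fractional expected counts in 6 libraries.

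Mpeg1, a pore-forming protein of phagocytes, stood at 16.7, 11.7, 10.9 and 11.7 CPM in WT and at 43.4, 42.5, 52.6 and 31.2 CPM in cKO, with a log2 fold change of 1.73 ± 0.23 (SE; adjusted p = 0.000783). Its standard error shared the smallest place with Fcgr2b among the tested genes of the list. Cybb, the catalytic chain of the phagocyte NADPH oxidase, stood at 2.76 to 8.28 CPM in WT and 7.72 to 13.4 CPM in cKO. Its groups overlapped, the call (1.07, adjusted p = 0.0488) was the nearest to the threshold, and it was lost without any library but WT 1 (0.0541 to 0.132).

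Lgals3 (galectin-3) is made by macrophages and also by injured epithelium, so in whole kidney its source is not given by its level. It stood at 63.0, 50.3, 23.0 and 31.0 CPM in WT and at 223, 326, 230 and 490 CPM in cKO, a rise of 2.92 ± 0.38 (SE; adjusted p = 0.000692). The groups did not overlap. Cd86, a costimulatory ligand for T cells, stood at 3.54, 0.804, 0.898 and 0.905 CPM in WT and at 3.30, 6.85, 4.05 and 2.22 CPM in cKO. It was not called (log2 fold change 1.40, 95% interval 0.22 to 2.57, adjusted p = 0.0955), and it was called without WT 1 (2.20, adjusted p = 0.00725).

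The filter on low counts touched part of the list. 23 of the 34 tested genes passed the filter level of 0.766 CPM in all 4 WT libraries, and 20 of them were called higher, where 7.47% of the 12432 such genes were. The other 11 (Lst1, Spi1, Ms4a7, Itgam, Itgb2, Fcgr1, Trem2, Msr1, C5ar1, Cd86 and Gpnmb) passed it in every cKO library but not in every WT library. The filter asks for 4 libraries of either genotype, so genes of that kind needed cKO libraries to be tested. Of all 914 of them 43.0% were called higher, so the 9 calls among these 11 are not read as support.

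The libraries of a genotype did not carry the list equally. WT 1 had the highest WT level for 27 of the 34 tested genes and the lowest for 0, while over all tested genes it was the highest in 26.5%. Summed over the list, WT 1 to WT 4 held 426, 283, 236 and 252 CPM, and cKO 1 to cKO 4 held 903, 1390, 1160 and 1180 CPM. Among cKO libraries, cKO 3 was the highest for 19 of the 34 genes (18.7% of all tested genes), and cKO 4 and cKO 1 were the lowest for 13 and 12. The median of the list relative to the WT median was 0.66 in WT 1 and between -0.10 and -0.02 in the other WT libraries, and it was 1.58, 1.98, 2.20 and 1.58 in cKO 1 to cKO 4, on the log2 scale. Without WT 1 the median fold change of the list was 2.17, 31 of 36 tested genes were called higher (11.6% of all genes) and 0 lower (10.4%), and all 29 earlier calls were among them.

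**Figure D3:**
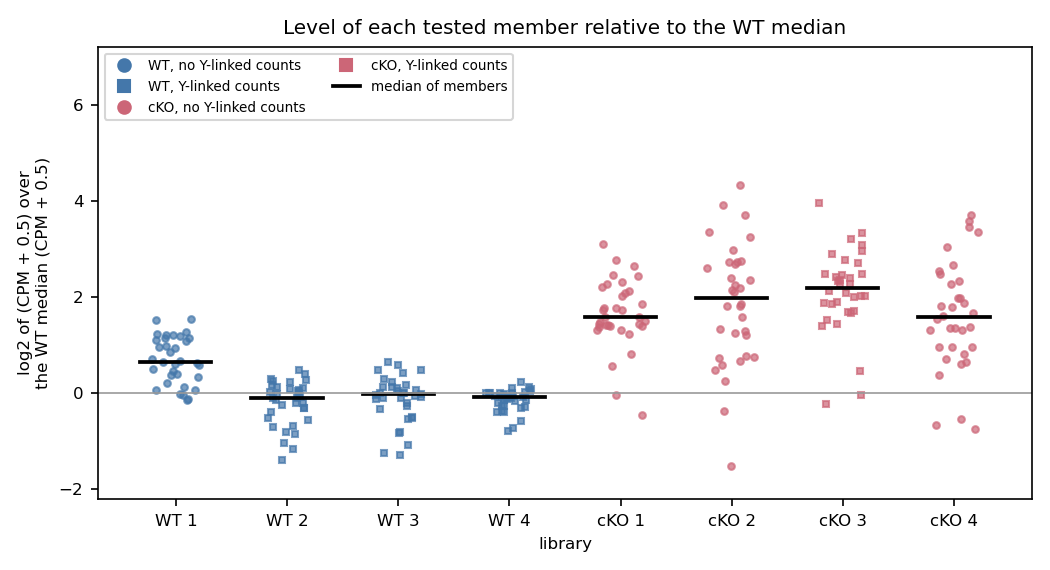
Each of the 34 tested genes in each library, as log2 of CPM plus 0.5 over the WT median of the same gene plus 0.5, with the median of the genes as a black bar. WT 1 (median 0.66) lies above the other WT libraries, and all cKO medians lie between 1.58 and 2.20.

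WT 1 is the only WT library without Y-linked counts and cKO 3 the only cKO library with them, so the order of the libraries and their sex cannot be told apart. With sex as a term, 19 of the 34 genes were called higher (5.17% of all tested genes) and 0 lower (1.63%), and the median log2 fold change was 1.71. The 10 calls lost with it were those of Cd53, Cd48, Coro1a, Spi1, Adgre1, Aif1, Itgb2, Fcer1g, Clec7a and Cybb, with adjusted p from 0.0515 (Fcer1g) to 0.131 (Cybb). Among libraries without Y-linked counts (cKO 1, cKO 2 and cKO 4 over WT 1) only Trem2 was called higher (0.448% of all genes were), 0 were lower (0.419%) and the median was 0.94. Among libraries with them (cKO 3 over WT 2, WT 3 and WT 4) 25 were called higher (2.99% of all genes were), 0 lower (0.484%) and the median was 2.59. Each of these contrasts rests on a single library on one side, and its precision on the spread pooled over all 4 groups of genotype and sex.

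The fold change was larger among libraries with Y-linked counts for 33 of the 34 genes, against 45.1% of all tested genes. The edgeR test of that difference gave 0 genes of the list with an adjusted p under 0.05 and 12 with an unadjusted p under 0.05, and it called 9 of all 13829 genes. The smallest adjusted p was 0.352, for Cd53, whose log2 fold changes were 0.21 without and 2.63 with Y-linked counts. Trem2 stood at 4.07 and 5.87, Gpnmb at 4.84 and 5.55, and Itgam at 2.83 and 2.72.

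**Figure D4:**
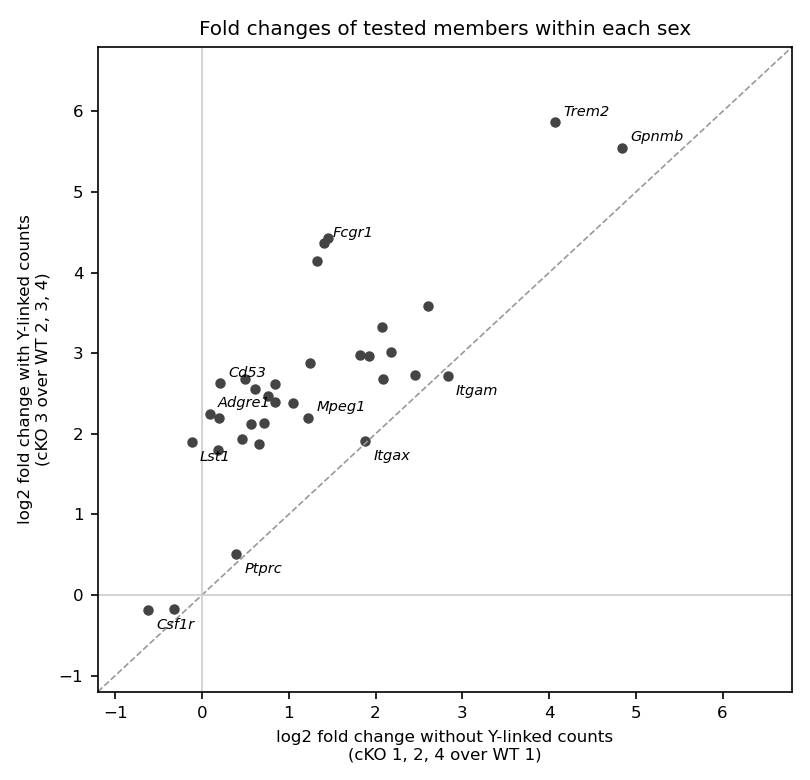
Log2 fold change of each tested gene among libraries with Y-linked counts (vertical) against that among libraries without them (horizontal); the dashed line marks equal values. Itgam (2.83 without, 2.72 with) is the point below the line, and Trem2 and Gpnmb are high on both axes.

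In every one of the 8 fits that left out a library, and with sex as a term, 18 of the 29 calls held: those of Cd52, Cd68, Ms4a7, Itgam, Itgax, Fcgr1, Fcgr3, Tyrobp, Trem2, Cd14, Mrc1, Msr1, C5ar1, Lyz2, Mpeg1, Ctss, Gpnmb and Lgals3. Without both WT 4 and cKO 4, the libraries with later header numbers, 12 genes of the list were called higher (3.01% of all genes) and 0 lower (1.09%), and the median log2 fold change was 1.78. Calls that held under all of these were those of Cd68, Ms4a7, Itgam, Trem2, Cd14, Mrc1, Lyz2, Mpeg1, Ctss, Gpnmb and Lgals3, 11 genes in all. Of these 11, Ms4a7, Itgam, Trem2 and Gpnmb are among the genes that needed cKO libraries to pass the filter, so their calls are not read as support. The same holds for Fcgr1, Msr1 and C5ar1 among the 18.

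Relative to Ptprc most genes of the list stood higher in cKO, but 0 ratios passed the adjusted test. For each of the other 33 tested genes, log2 of CPM plus 0.5 was taken relative to the same value of Ptprc, and the genotypes were compared by an exact two-sided permutation test over 70 assignments of the libraries. The cKO minus WT difference was positive for 31 of 33. The largest were 3.27 for Trem2, 2.79 for Gpnmb, 2.67 for Lyz2, 2.54 for Lgals3 and 2.36 for Fcgr3, and the 2 negative ones were -1.09 for Csf1r and -0.66 for Fcgr2b. 15 genes reached an unadjusted exact p under 0.05, all at 0.0286, the smallest these 8 libraries allow, and after adjustment over the 33 genes 0 passed (smallest adjusted p 0.0629 by the exact permutation test). With that floor, many genes at once had to reach it for any to pass, so the absence of calls does not show equal ratios. Ptprc itself had a lower log2 fold change (0.46) than most of the list, so the 31 positive differences largely restate the fold changes given above.

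Other genes of the same cells and of other cell types were read from companion lists of 157 genes, of which 101 were tested, 35 called higher and 12 lower. Beside these counts and those of each list below, 9.57% of all 13829 tested genes were called higher and 7.14% lower. The companion lists too were chosen with earlier results of these data known, so their counts are descriptions. Other macrophage genes were called higher in 11 of 16 tested cases and lower in 1 (median log2 fold change 1.84). The complement subunits C1qa, C1qb and C1qc rose by 2.19, 2.24 and 2.36 (adjusted p = 0.00312, 0.00606 and 0.00210). C1qb stood at 33.3, 16.1, 6.78 and 11.4 CPM in WT and at 55.8, 67.6, 117 and 79.4 CPM in cKO, with WT 1 again the highest WT library. Clec4n (dectin-2) rose by 5.26 ± 0.54 (SE; adjusted p = 0.000194) from 0 to 0.259 CPM in WT to 4.70 to 8.59 CPM in cKO. Clec4n needed cKO libraries to pass the count filter, so its call is not read as support. The fractalkine receptor Cx3cr1 rose by 1.59 and the antigen presentation chain Cd74 by 2.15 (adjusted p = 0.00814 and 0.00324). Mertk, a receptor for dying cells, was the gene called lower (-0.93, adjusted p = 0.0325). That call was lost with sex as a term (0.255) and without WT 2, WT 3, WT 4, cKO 2, cKO 3 or cKO 4 (up to 0.104).

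Among the growth factors of these cells, 1 of 5 tested genes was called. Csf1, the ligand of Csf1r, stood at 7.25, 3.44, 6.94 and 5.56 CPM in WT and at 14.2, 11.3, 21.3 and 29.6 CPM in cKO, a rise of 1.71 ± 0.34 (SE; adjusted p = 0.00692), while the Csf1r receptor itself was not called. The other ligand, Il34, stood at 6.64 to 28.2 CPM in WT and 21.2 to 56.2 CPM in cKO without a call (1.00, adjusted p = 0.117). The 5 tested genes were colony stimulating factors and their receptors, with a median log2 fold change of 1.00.

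Of 11 myeloid transcription factors 4 were called higher, among them Runx1 (2.08, adjusted p = 0.0103) and Klf4 (1.48, adjusted p = 0.00755), and 1 lower, Irf5 (-0.97, adjusted p = 0.0163), a call lost without cKO 4 (0.0565) and with sex as a term (0.0971). Below the Fc receptors and integrins, 6 of 14 signalling genes were called higher, led by the Src family kinase Fgr (2.25, adjusted p = 0.00507) and the integrin activator Fermt3 (1.90, adjusted p = 0.00398). Both Runx1 and Fgr needed cKO libraries to pass the count filter, so their calls are not read as support. Among the NADPH oxidase partners of Cybb, the cytosolic subunit Ncf1 was called higher (1.82, adjusted p = 0.00281).

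Neutrophil markers were low, and markers of dendritic, T, NK, B and plasma cells were mostly without a call. All 10 neutrophil markers were below the filter, with summed levels of 0.323 to 1.64 CPM in WT and 0.261 to 2.21 CPM in cKO, and Mpo, Camp and Ngp had 0 counts in all libraries. Dendritic cell markers were called in 0 of 4 tested cases, B and plasma cell markers in 0 of 3, and T and NK cell markers in 1 of 6 (the kinase Lck, 1.65, adjusted p = 0.00772). Lck needed cKO libraries to pass the count filter, so its call is not read as support. Too low to test were 5 of 9 dendritic cell markers, 6 of 9 B and plasma cell markers and 11 of 17 T and NK cell markers. The tested genes had median log2 fold changes of 0.50, 0.49 and 0.95 in the same order. With so few genes tested, the lack of calls does not show unchanged levels. Summed T and NK markers ranged from 7.44 to 14.4 CPM in WT and from 10.8 to 23.7 CPM in cKO. Of the monocyte markers 4 of 5 tested were called higher, among them S100a4 (3.71, adjusted p = 0.00148) and Plac8 (2.20, adjusted p = 0.0123). Ccr2 was also called higher (1.07, adjusted p = 0.0436), although its groups overlapped. That call was lost with sex as a term (0.0651) and without WT 1, WT 3, WT 4, cKO 1, cKO 3 or cKO 4 (up to 0.120). Ly6c2, a marker of classical monocytes, was too low to test, at 0.582 to 4.74 CPM in WT and 0.122 to 0.498 CPM in cKO. S100a4 and the called marker Fn1 (2.67, adjusted p = 0.000155) are also made by fibroblasts, and Ace, the marker called lower (-2.37, adjusted p = 0.00383), is abundant in proximal tubule and endothelium.

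**Figure D5:**
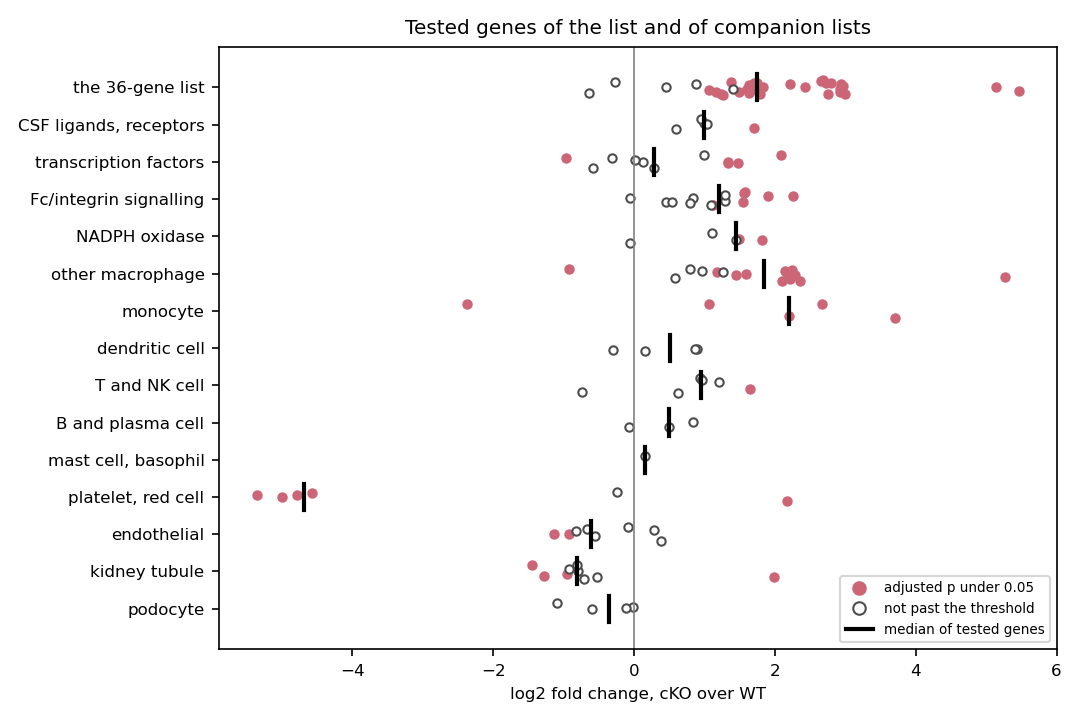
Log2 fold change (cKO over WT) of the tested genes of the 36-gene list and of companion lists, a row per list. The median is drawn as a bar, and filled points are genes past the adjusted p threshold of 0.05. Tubular injury genes, which were tested, and neutrophil markers, which were not, have no row. The macrophage, monocyte and signalling rows lie mostly to the right of 0, the hemoglobin genes lie near -5, and podocyte genes lie at or left of 0.

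Other parts of the tissue moved with the same groups. The tubular injury genes, 4 of 4 called higher, summed to 456 to 1960 CPM in WT and 10800 to 25100 CPM in cKO, and the injury marker Havcr1 rose by 8.09 (adjusted p = 1.85e-05). Hemoglobin genes were called lower, Hbb-bs standing at 317, 126, 12.7 and 274 CPM in WT and at 3.97, 4.68, 12.7 and 1.44 CPM in cKO (log2 fold change -5.00, adjusted p = 0.0176). The Hbb-bs groups touched, WT 3 and cKO 3 both reading 12.7 CPM, and the call was lost without WT 4 or cKO 2 (0.0536 at most) and without both WT 4 and cKO 4 (-4.46, adjusted p = 0.107). The platelet and red blood cell markers summed to 564, 249, 34.4 and 591 CPM in WT 1 to WT 4 and to 16.5, 12.2, 38.8 and 8.16 CPM in cKO 1 to cKO 4. The part of tubular injury and of blood content in the values of the 36 genes was not tested.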

How the data were processed

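RNA of 8 kidneys was sequenced from stranded libraries of polyadenylated RNA, per the labels' protocols. The authors deposited RSEM expected counts per Ensembl gene, unscaled, and the submitters' processing notes name STAR, RSEM and the build mm10 without versions. The annotation release is not given in the sources used here, nor is the use of strand in counting. Shared reads give fractional expected counts.

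Here the expected counts were rounded, filtered with filterByExpr on genotype (13829 genes kept), scaled by TMM and tested with edgeR's robust quasi-likelihood test, two-sided. P-values were adjusted by Benjamini-Hochberg across the tested genes, with 0.05 as threshold. CPM uses TMM-scaled library sizes, SD is over the 4 libraries of a group, and CPM per kilobase divides by the merged exon length. Symbols, positions and exon overlaps are from GENCODE M21 (GRCm38). A library with at least 10 Y-linked counts was taken as bearing a Y chromosome. Any member and any companion list gene could be named, with counts over the whole list. Some companion genes are counted but not reported here by name. The members and all lists were chosen with earlier results of these data known. Totals of 9454830 to 15838026 counts set the counting precision. The test was tested on simulated data. Software was edgeR 4.0.16, DESeq2 1.42.0 and limma 3.58.1 in R 4.3.3, and scipy 1.17.1, numpy 2.4.6, pandas 2.3.3 and matplotlib 3.10.9 in Python 3.11.15. Alternatives were other scalings, filters, tools, thresholds and covariates and leaving out libraries; a term for the header numbers was added after seeing the data.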

Additional observations from a re-analysis of the deposited data

Results flagged for a closer look

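Within each genotype, the 4 levels of each of the 36 genes were checked for a library whose gap to its nearest neighbour, over the whole range, exceeded Dixon's 95% critical value, and 6 of 72 such groups had one. Chance gives about 1 in 20 groups. In 5 of the 6 the library was WT 1: Cd53 stood at 7.42 CPM, Adgre1 at 8.63 CPM, Mpeg1 at 16.7 CPM, Ctss at 28.6 CPM and Cd86 at 3.54 CPM there, above the other WT libraries. The other was Cd53 at 13.7 CPM in cKO 3, above the other cKO libraries. WT 1 is the WT library without Y-linked counts and cKO 3 the cKO library with them.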

How the results depend on the processing

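Of the 29 calls, all 29 were kept under RLE, upper quartile and library size scaling, under TMM without the 20 most abundant and mitochondrial genes, with other filters, with DESeq2 (30 called) and with age as a term; limma-voom called 27 and the header number term 27. Members called higher numbered 19 with a sex term, 25 with and 1 without Y-linked counts, 12 without WT 4 and cKO 4, 16 at a threshold of 0.01 and 20 to 31 leaving out a library. Members called lower numbered 1 with age as a term (Csf1r) and otherwise 0. The median log2 fold change of the members was 2.59 with and 0.94 without Y-linked counts, and 1.62 to 2.17 leaving out a library. Lst1 turned to -0.12 without Y-linked counts.

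Over all tested genes, higher and lower calls (1323 and 987) became 1866 and 550 with library size scaling, which moved the median of all genes to 0.15; 715 and 226 with a sex term; 413 and 67 with and 62 and 58 without Y-linked counts; 417 and 151 without WT 4 and cKO 4; and 589 and 209 at 0.01. Lower calls were 426 without the 2.5-month pair and 1654 at 0.1. Leaving out a library gave 815 (without cKO 4) to 1626 (without WT 1) higher and 340 (without cKO 4) to 1467 (without WT 1) lower. Companion genes called higher (35) numbered 21 with and 3 without Y-linked counts, 14 without WT 4 and cKO 4 and 21 at 0.01. Those called lower (12) numbered 7 with library size scaling, 5 with a sex term, 0 with and 1 without Y-linked counts, 2 without WT 4 and cKO 4, 5 without the 2.5-month pair, 2 at 0.01 and 4 to 12 leaving out a library. The cause of these changes was not tested, except that a smaller threshold leaves fewer calls by construction.

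With the replicate number as a block, 29 members were again called higher and 0 lower, with 1315 and 893 of all genes, while the 4 hemoglobin genes passed no longer (log2 fold changes of -5.27 to -4.76, adjusted p of 0.0927 to 0.125) and Il34 did (0.0129). Same-numbered libraries correlated at -0.08, 0.28, 0.12 and 0.00 and differently numbered ones at -0.28 to 0.20, so the numbers were not taken as pairs. The ratios to Ptprc passed in 0 cases with pseudocounts of 0.1 and 1 and relative to Laptm5. Trem2, Gpnmb, Msr1, Cd163 and Lyz1 rest on 5 to 15 WT counts, so counting limits their WT levels.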
